A study of Mus musculus with 4 samples.

Results

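The genes described here encode the proteasome and its partners. They include the 7 alpha and 7 beta subunits of the 20S core (Psma1 to Psma7, Psmb1 to Psmb7) and the 6 ATPases of the 19S cap (Psmc1 to Psmc6). A further 14 proteins (Psmd1 to Psmd14) are called the other cap proteins here, although Psmd5, Psmd9 and Psmd10 are chaperones of base assembly. The rest are the activators Psme1 to Psme4, the inhibitor Psmf1, and the assembly factors Psmg1, Psmg2 and Pomp. The members were chosen by name and are 42 of the 32301 genes or unnamed transcripts with a probe on the array. All 42 were represented, by 58 probes whose accession is a RefSeq transcript of the gene, and all 42 passed the filter on dim probes. Messenger RNA of the mouse hepatoma line Hepa1c1c7 was measured on 4 one-colour arrays. The DEM group had 2 arrays of cells exposed for 6 hours to diethyl maleate (DEM) at 100 µM, and the DMSO group had 2 arrays of cells kept for the same time with dimethyl sulfoxide (DMSO), the solvent. DEM is a thiol-reactive compound, named an NRF2 activator in the series title. The submitters call the RNA samples of a group independent and do not mention separate cultures, so the p-values rest on a spread that may be technical. The RNA is from bulk cells, in which fewer expressing cells and less RNA per cell cannot be told apart.

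The proteasome degrades proteins that carry ubiquitin chains. In the 20S core, outer rings of alpha subunits gate the entrance and inner rings of beta subunits hold the cutting sites, while the 19S cap binds the ubiquitin chain, removes it and threads the unfolded protein inward with its ring of ATPases. In mammalian cells the transcription factor NRF1, a relative of NRF2, is known to raise most proteasome genes together when proteasome activity is short.

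Of 41174 probes, 50.4% to 52.6% per array exceeded background clearly, and 0 spots reached saturation. Exposure was visible in the NRF2 targets used as a check: Slc7a11 was 35.5-fold, Hmox1 23.4-fold, Nqo1 5.10-fold and Gclm 4.02-fold higher in DEM. Of 8 hepatocyte and hepatoma markers, 5 were tested and Afp, Alb, Krt8 and Krt18 were well above background on all 4 arrays, whereas Ttr, Apoa1 and Hnf4a were above it on 0 arrays. None of the 5 was called, but Afp and Apob, the second near background on the DMSO arrays, were higher in DEM at an unadjusted limma p under 0.05. The probe used for Apob was above background on 3 arrays, and its other probes were above it on 0 arrays. Of 20 markers of macrophages, fibroblasts, endothelium and bile duct, 11 were tested, 0 were called and 3 (Cd14, Dcn and Sox9) were lower in DEM at an unadjusted limma p under 0.05. The 11 tested were well above background on all 4 arrays, and Krt7, Col1a1 and Dcn had higher signals than Alb. Another 5 of the 20 were above background on 0 arrays. The part of the markers in the values below was not tested.

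Proteasome transcripts differed little between DEM and DMSO, and most of the small differences pointed upward, though not with spike-in scaling. No member passed an adjusted p of 0.05 over the 15537 genes tested (limma with Benjamini-Hochberg adjustment): 0 of 42 were called higher, against a background of 0.714% of all genes, and 0 were called lower, against 0.508% (1.22% in either direction). With an unadjusted p below 0.05 there were 4 members higher (Psmd5, Psmd7, Psma4 and Psmd11) and 0 lower, beside 9.02% and 10.2% of all genes, so that the count of higher members is close to the background. The median log2 change of the 42 members was 0.11, against −0.01 for all genes, and the middle 50% of the members lay between 0.02 and 0.16, against −0.16 and 0.13 for all genes. The SD of log2 changes was 0.14 among members and 0.39 among all genes, which include dim ones. For genes at least as bright as the dimmest member the middle 50% lay between −0.07 and 0.12, nearer to the width among members.

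The direction rests on the scale used. The log2 change was above 0 in 35 of 42 members, where 48.8% of all genes were, but in 41 members when arrays were scaled on their median and in 21 when they were scaled on the spike-in probes. Those scalings moved the median of all genes to 0.14 and −0.12. The array median used for scaling is itself dim, with a signal of 18.3 and 16.2 in DEM and 18.6 and 18.4 in DMSO. Only 50.4% to 52.6% of probes per array exceeded background clearly. Relative to the median of all genes, 37 members were higher in DEM in all 3 scalings. Each of these scalings shifts an array by a constant, so that this count could not differ between them. It was 33 with quantile normalization, 39 after normexp background correction and 32 with no filter on dim probes. By definition of the median, 7768 of the 15537 genes tested lay above it. The arrays did not overlap in 24 members that were higher in DEM (57.1% of members, background 24.9%) and in 2 that were lower in DEM (background 25.6%). Members are bright. Among the 6403 genes at least as bright as the dimmest member, a comparison chosen after seeing the data, 29.9% were higher in DEM without overlap and 55.9% had a log2 change above 0. The part of brightness in the members' values was not tested.

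**Figure D1:**
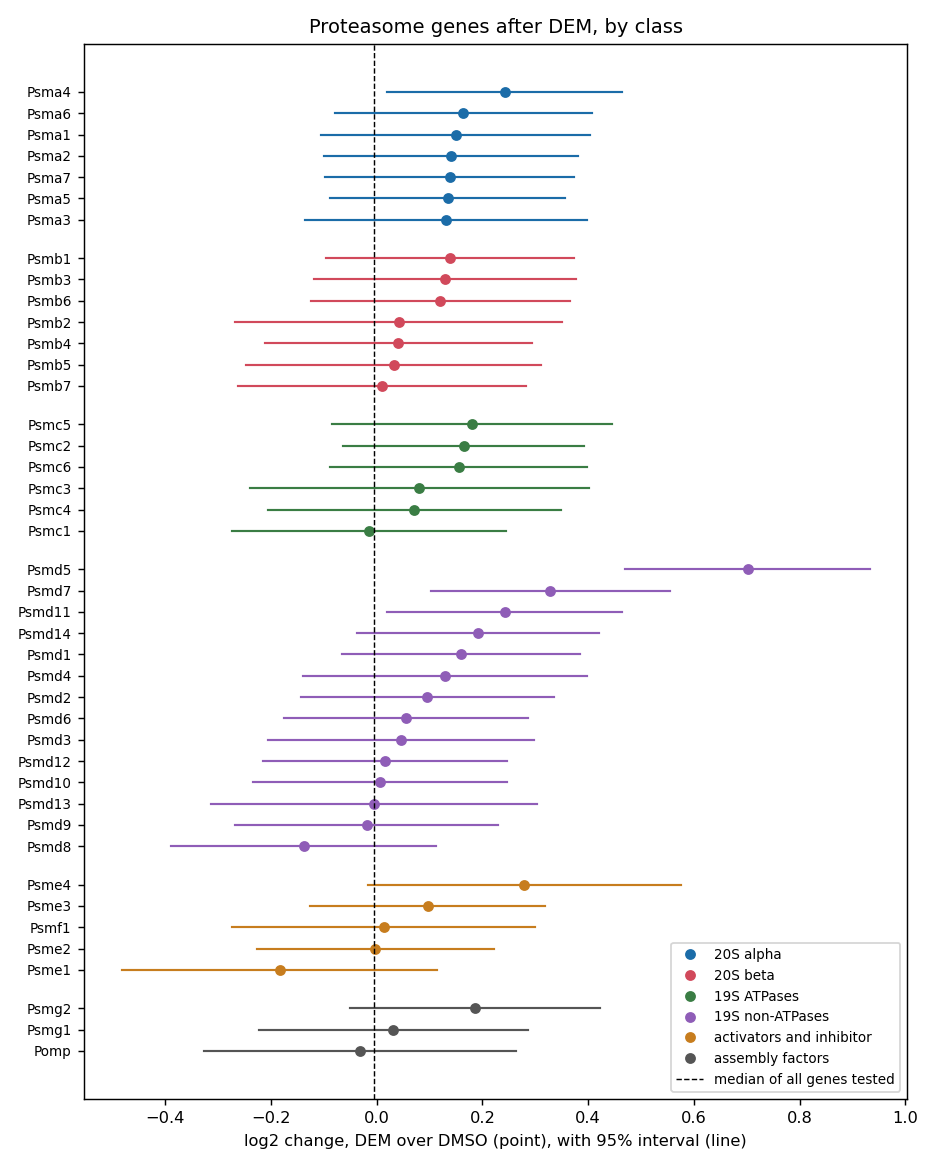
Log2 change of each of the 42 proteasome genes, DEM over DMSO (x axis), with its 95% interval from limma, in 6 classes down the page and sorted within each. Psmd5 stands at 0.70, apart from the other members, which lie between −0.18 and 0.33; the dashed line is the median of all genes tested, −0.01.

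The largest change belonged to Psmd5, which encodes S5b, a chaperone that holds ATPase subunits while the base of the cap is put together and leaves before the particle is finished. Its signal, in multiples of the 75th percentile of the same array, was 21.2 and 20.3 on the DEM arrays, against 12.9 and 12.6 on the DMSO arrays. All DEM values lay above all DMSO values, with a gap wider than the difference within either group. The log2 change was 0.70 ± 0.09 (SE, n = 2 arrays per group), a 1.63-fold difference with a 95% interval of 1.39 to 1.91, and the limma adjusted p was 0.0541, just outside the threshold. It passed under other settings: the adjusted p was 0.0323 with probes required above background on all 4 arrays, 0.0213 with median scaling, 0.0106 after normexp background correction, and 0.00461 with an intensity trend in the variance. Over all alternatives the adjusted p ran from 0.00160, with trend and robust fitting, to 0.263, without DMSO replicate 2, while the log2 change relative to all genes stayed between 0.67 and 0.74. Psmd5 has 1 probe, so no other probe bears on it.

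The other chaperones of base assembly with Psmd names are Psmd9 and Psmd10. Psmd9 (p27) had a log2 change of −0.02 ± 0.09 and Psmd10 (gankyrin) of 0.01 ± 0.09, with limma adjusted p = 0.942 and 0.984. Their 95% intervals ran from −0.27 to 0.23 and from −0.23 to 0.25 on the log2 scale, whereas that of Psmd5 ran from 0.47 to 0.93. The second probe of Psmd9 gave 0.16. The difference between the genes was not tested.

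The promoters of the members with the largest changes are shown because these genes lead the list. They come from RefSeq on GRCm38.p6, 5′ to 3′, and span the annotated start of the gene. The capitals mark matches to TGACNNNGC, the core of the antioxidant response element through which NRF2 and NRF1 act, searched on both strands. Psmd7 had no entry.
Psmd5 promoter, chr2:34870913-34871212, minus strand: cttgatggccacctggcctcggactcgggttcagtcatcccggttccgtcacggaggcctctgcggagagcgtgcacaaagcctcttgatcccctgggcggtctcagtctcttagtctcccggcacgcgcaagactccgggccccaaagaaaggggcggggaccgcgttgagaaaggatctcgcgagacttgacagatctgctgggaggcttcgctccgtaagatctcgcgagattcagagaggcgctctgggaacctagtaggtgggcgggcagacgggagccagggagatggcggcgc
Psma4 promoter, chr9:54950609-54950908, plus strand: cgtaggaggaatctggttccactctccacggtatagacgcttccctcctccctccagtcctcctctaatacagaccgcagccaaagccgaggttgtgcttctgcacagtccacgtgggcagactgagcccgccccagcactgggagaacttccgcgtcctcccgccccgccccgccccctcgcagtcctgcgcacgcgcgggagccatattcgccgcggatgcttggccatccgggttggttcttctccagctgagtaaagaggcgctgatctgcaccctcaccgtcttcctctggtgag
Psmd11 promoter, chr11:80428365-80428664, plus strand: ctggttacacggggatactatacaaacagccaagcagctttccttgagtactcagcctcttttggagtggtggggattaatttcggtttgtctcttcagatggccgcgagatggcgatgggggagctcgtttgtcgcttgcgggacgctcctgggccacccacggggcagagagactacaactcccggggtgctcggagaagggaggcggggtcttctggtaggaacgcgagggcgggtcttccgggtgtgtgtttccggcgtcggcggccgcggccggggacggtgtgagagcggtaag
Psme4 promoter, chr11:30771525-30771824, plus strand: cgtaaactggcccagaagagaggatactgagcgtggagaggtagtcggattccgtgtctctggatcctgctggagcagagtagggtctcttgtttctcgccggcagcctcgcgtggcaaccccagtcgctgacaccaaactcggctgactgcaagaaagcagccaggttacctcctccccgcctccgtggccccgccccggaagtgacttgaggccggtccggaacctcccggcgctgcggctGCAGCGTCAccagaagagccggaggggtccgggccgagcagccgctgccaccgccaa

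Of these 4, the Psme4 promoter held a match, GCAGCGTCA on the minus strand, beginning 7 bases before the start. Entries were found for 35 of 42 members, with 38 promoters in all because some genes have 2. The core was present in 6 of these 38 (15.8%), against 12.4% of all 32851 promoters of the same length. The 6 were those of Psmb5 (TGACGTCGC), Psmb6 (TGACGGAGC), Psmc6 (GCTAAGTCA), Psmd9 (TGACCCCGC), Psmd12 (GCTGTGTCA) and Psme4. The fixed form TGACTCAGC was in 0 of 38 and in 0.454% of all promoters, and a CCAAT box, searched as CCAAT on both strands, in 31.6% and 37.4%. A match is a description of letters in this window and shows no binding.

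The alpha subunits form the gate of the core. By its brightest probe each of them had a positive log2 change, with median and spike-in scaling too. All 7 of these probes had both DEM arrays above both DMSO arrays. The share was 24.9% of all genes and 29.9% of genes at least as bright as the dimmest member. Psma4 was the highest, with signals of 18.8 and 18.5 in DEM, against 15.8 and 15.7 in DMSO (log2 change 0.24 ± 0.08, limma adjusted p = 0.232). The groups did not overlap, but the second probe of Psma4 gave a log2 change of 0.05. Its groups overlapped, with 10.3 and 9.72 in DEM, against 10.1 and 9.28 in DMSO. Psma3 was the lowest, with 13.0 and 13.0 in DEM, against 12.6 and 11.2 in DMSO (log2 change 0.13 ± 0.10, limma adjusted p = 0.553). Here the gap between the groups was smaller than the distance between the DMSO arrays. The other 5 alpha subunits lay between 0.13 and 0.16, a range narrower than the median SE in the class, 0.09.

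The beta subunits include the 3 that cut: Psmb6 with caspase-like, Psmb7 with trypsin-like and Psmb5 with chymotrypsin-like activity. All 7 had log2 changes above 0 on the scale used here, but Psmb2, Psmb4, Psmb5 and Psmb7 were below 0 with spike-in scaling, Psmb5 and Psmb7 with quantile normalization, Psmb2, Psmb4 and Psmb5 after normexp, and all 4 without DMSO replicate 2. In 3 of the 7 (Psmb1, Psmb3 and Psmb6) both DEM arrays lay above both DMSO arrays, beside 24.9% of all genes. Among genes at least as bright as the dimmest member the share was 29.9%. Psmb1 was the highest, with 54.6 and 55.5 in DEM, against 51.5 and 48.5 in DMSO (log2 change 0.14 ± 0.09, limma adjusted p = 0.472). Psmb7 was the lowest, with 35.4 and 38.3 in DEM, against 38.3 and 34.9 in DMSO. Its arrays interleaved, and the log2 change was 0.01 ± 0.10 (limma adjusted p = 0.973). Of the other cutting subunits, Psmb6 had a log2 change of 0.12 ± 0.09 and Psmb5 of 0.03 ± 0.10. Psmb2 and Psmb4, which have no cutting site, gave 0.04 each, and Psmb3, likewise without a cutting site, gave 0.13.

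The 6 ATPases unfold the substrate and push it into the core. Psmc5 was the highest, with 20.1 and 20.6 in DEM, against 18.98 and 17.0 in DMSO (log2 change 0.18 ± 0.10, limma adjusted p = 0.410). Psmc1 was the lowest, with 48.9 and 46.2 in DEM, against 50.2 and 46.0 in DMSO (log2 change −0.01 ± 0.10, limma adjusted p = 0.957). Its DEM values lay inside the range of its DMSO values. Psmc2 and Psmc6 had log2 changes of 0.16 and 0.15, with groups that did not overlap, and Psmc3 and Psmc4 had 0.08 and 0.07, with groups that did.

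In the rest of the cap, Psmd7 was the second highest member. It encodes the lid subunit that pairs with Psmd14, the enzyme that cuts ubiquitin chains off the substrate. Its signals were 32.9 and 33.7 in DEM, against 26.1 and 26.9 in DMSO, a 1.26-fold difference (log2 change 0.33 ± 0.08, limma adjusted p = 0.158). The groups did not overlap, but the other probe of Psmd7 gave 0.14. With an intensity trend in the variance Psmd7 was called (limma adjusted p = 0.0446), and with trend and robust fitting also (0.0327), in a range over all alternatives that reached 0.552 with spike-in scaling. Psmd14 itself had a log2 change of 0.19 ± 0.09, and 0.18 from its other probe. Psmd11, a lid subunit, had 72.0 and 71.8 in DEM, against 60.2 and 61.4 in DMSO (log2 change 0.24 ± 0.08, limma adjusted p = 0.232), again without overlap.

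Psmd8, another lid subunit, ran the other way, with 16.4 and 15.6 in DEM, against 18.3 and 16.9 in DMSO (log2 change −0.14 ± 0.09, limma adjusted p = 0.5004). It was 1 of the 2 members whose DEM arrays both lay below both DMSO arrays. The 4 remaining lid subunits among the members, Psmd3, Psmd6, Psmd12 and Psmd13, had log2 changes of 0.05, 0.06, 0.02 and −0.01. The median over the 8 lid genes among the members was 0.05. The base proteins Psmd1 and Psmd2, large scaffolds, and Psmd4, a ubiquitin receptor, had 0.16, 0.10 and 0.13. Their limma adjusted p values ran from 0.395 to 0.630. In all 3 both DEM arrays lay above both DMSO arrays, beside 24.9% of all genes. Among genes at least as bright as the dimmest member the share was 29.9%. These subgroups of the cap were formed after the values were seen.

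**Figure D2:**
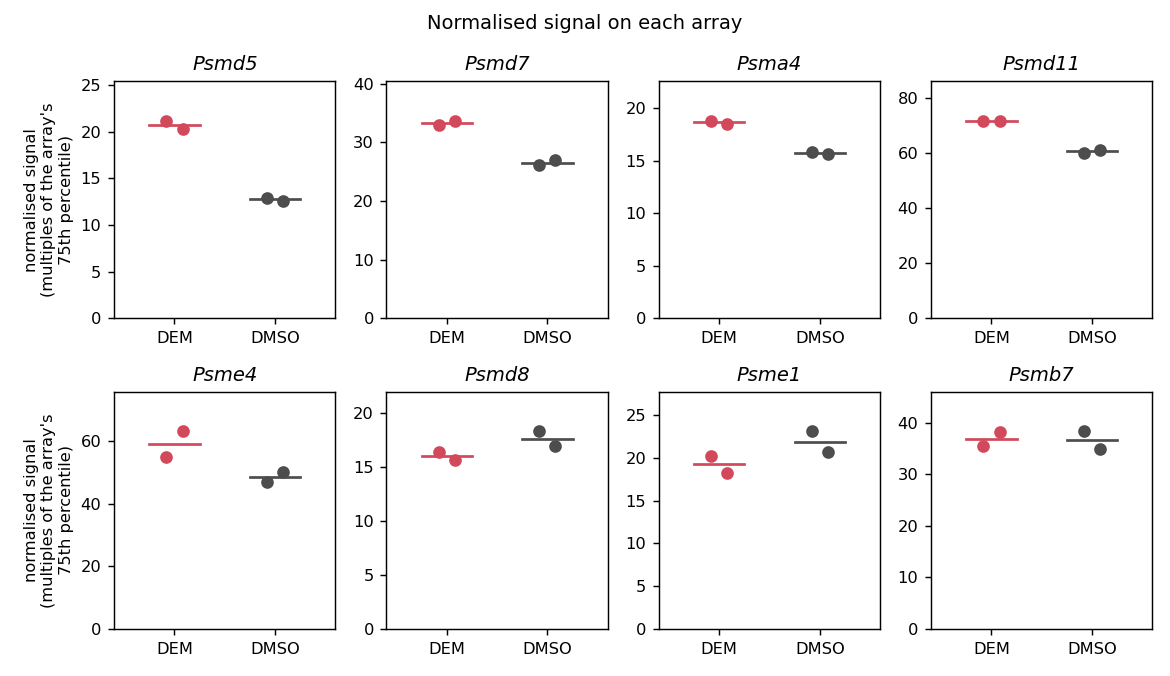
Normalised signal (y axis, multiples of the 75th percentile of the array, starting at 0) of 8 members on each array, DEM left and DMSO right; points are arrays and bars are means of 2. Relative to its level, Psmd5 shows the widest gap between the groups, the gaps of Psmd7, Psma4 and Psmd11 are smaller, and the arrays of Psmb7 interleave.

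The activators bind the ends of the core in place of the 19S cap. Psme4 (PA200), a large activator found in nuclei, was the highest, with 55.0 and 63.1 in DEM, against 47.0 and 50.1 in DMSO (log2 change 0.28 ± 0.11, limma adjusted p = 0.281). The groups did not overlap, and its other probes gave 0.31 and 0.41. Psme1, which with Psme2 forms the activator PA28 known to be induced by interferon-gamma, was the lowest of all members, with 20.3 and 18.3 in DEM, against 23.1 and 20.7 in DMSO (log2 change −0.18 ± 0.11, limma adjusted p = 0.453). Psme2 had a log2 change of −0.00 ± 0.08 and its other probe gave −0.01. Psme2 has a near-identical retrogene copy in the mouse, and signal shared with it was not tested. Psme3, the nuclear relative of this activator, had 0.10, and the inhibitor Psmf1 had 0.01, with −0.08 and −0.10 from its other probes.

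Of the factors that put the core together, Psmg2, which pairs with Psmg1 to build the alpha ring, had signals of 25.9 and 25.2 in DEM, against 23.1 and 21.8 in DMSO (log2 change 0.19 ± 0.09, limma adjusted p = 0.349), and 0.20 from its second probe. The groups did not overlap. Psmg1 had a log2 change of 0.03 ± 0.09. Psmg3 and Psmg4, counted here with the proteasome-associated genes and not with the members, had −0.11 and 0.16. They were named after their values were seen. Pomp, the chaperone that guides the beta subunits onto that ring, had 101.4 and 105.3 in DEM, against 113.5 and 98.2 in DMSO (log2 change −0.03 ± 0.11, limma adjusted p = 0.914), and its DEM values lay between its DMSO values.

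Set side by side, the class medians relative to the median of all genes were 0.15 for the alpha subunits, 0.05 for the beta subunits, 0.12 for the ATPases, 0.08 for the other cap proteins, 0.02 for the activators and inhibitor and 0.04 for the assembly factors. The other cap proteins here include the base chaperones Psmd5, Psmd9 and Psmd10. The class medians are descriptions with no test, since 2 arrays against 2 allow no exact permutation p below 0.333 and members are not replicates. The median difference of DMSO replicate 1 over DMSO replicate 2 was 0.05 in the alpha subunits, below their median change, and 0.12 in the beta subunits, above theirs. DMSO replicate 1 was above DMSO replicate 2 in 38 of 42 members, by a median of 0.10 on the log2 scale, against 0.04 over all genes and 0.07 over the genes at least as bright as the dimmest member, whereas DEM replicate 1 was above DEM replicate 2 in 23 of 42. The median size of the difference between the DEM arrays was 0.046. In 19 of 42 members the DMSO arrays were at least as far apart as the means of the groups.

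Leaving out DMSO replicate 2 gave a member median of 0.07 relative to all genes, and leaving out DMSO replicate 1 gave 0.14. The members with a log2 change above 0 then numbered 25 and 40. The beta median was 0.02 without DMSO replicate 2, 0.14 without DMSO replicate 1 and 0.09 without DEM replicate 1. For the ATPases it was 0.07 without DMSO replicate 2 and 0.08 without DEM replicate 1. The activator median was −0.02 when DEM replicate 1 was omitted, 0.08 when DEM replicate 2 was, 0.07 when DMSO replicate 1 was and 0.0026 when DMSO replicate 2 was. For the assembly factors the values in the same order were 0.08, −0.01, 0.06 and 0.0069. The alpha subunits had the highest median whichever of 3 arrays was left out, and the ATPases had it without DEM replicate 2, with 0.17 against 0.15 for the alpha subunits. After normexp background correction the ATPases were also highest, with 0.165, followed by the other cap proteins with 0.1195 and the alpha subunits with 0.118.

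**Figure D3:**
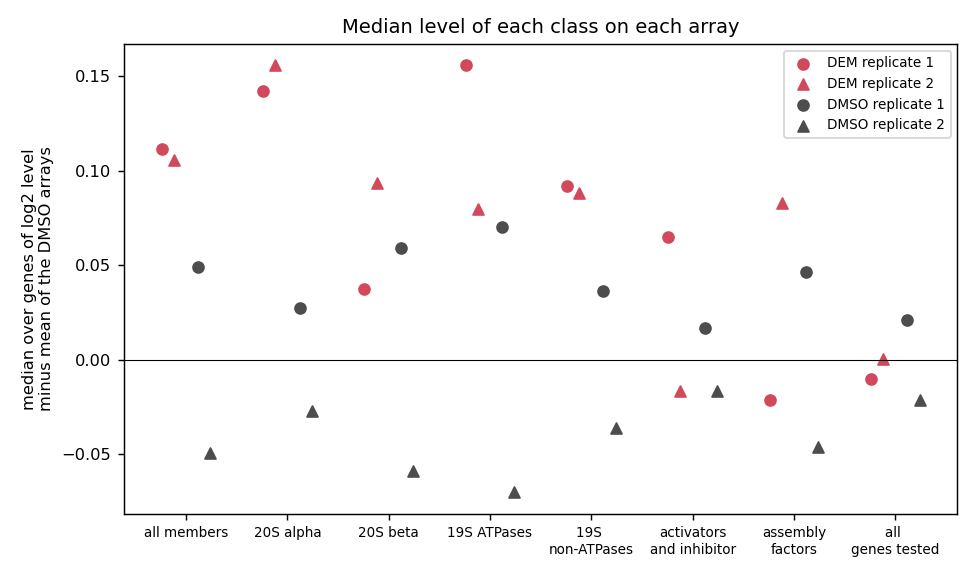
Median over the genes of a class of the log2 level minus the mean of the DMSO arrays (y axis), for each of the 4 arrays (symbols), with DEM left of DMSO within each class (x axis). For the alpha subunits the DEM arrays stand at 0.14 and 0.16, against 0.03 and −0.03 for DMSO, while in the beta subunits, activators and assembly factors a DEM array lies at or below DMSO replicate 1.

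Different probes of a gene were compared. Of the 58 member probes, all tested, 48 had a log2 change above 0 on the scale used here. By gene, 48.8% of all genes and 55.9% of genes at least as bright as the dimmest member were above 0. With spike-in scaling 21 of 42 members were, so the probe count depends on the scale too. Of the 13 members with several probes, 11 had probes of 1 sign, and the exceptions were Psmd9 and Psmf1. The widest span between probes of a member was 0.19, in Psma4 and in Psmd7, which is larger than the change of most members. For the brightest probe of each gene and the scaling used here, the highest upper bound of a 95% interval was 1.49-fold among members other than Psmd5, and the lowest lower bound of any member was 0.716-fold.

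Genes that work with the proteasome were examined as 4 lists, all chosen with earlier results of these data known, and 0 genes of these lists were called (limma adjusted p). Of the 3 tested interferon-inducible subunits that replace the cutting subunits in immunoproteasomes, Psmb8, Psmb9 and Psmb10, all had log2 changes below 0, except Psmb10 with median scaling, with a median of −0.22 and 0 at an unadjusted p under 0.05. Psmb8 had the largest, with 1.02 and 0.877 in DEM, against 1.195 and 1.06 in DMSO (log2 change −0.25 ± 0.13, limma adjusted p = 0.384). The other probe of Psmb8 gave −0.13. Psmb9 was dim, with 0.113 and 0.085 in DEM, against 0.133 and 0.098 in DMSO. Its groups overlapped (log2 change −0.22 ± 0.22). Psma8 and Psmb11, known from testis and thymus, were not above background on at least 2 arrays.

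The median over 10 other proteasome-associated genes was 0.11, and at an unadjusted p below 0.05 there were 2 higher and 0 lower, beside 9.02% and 10.2% of all genes. Akirin2, which carries proteasomes into the nucleus, had the largest change, with 8.79 and 9.28 in DEM, against 6.64 and 5.73 in DMSO (log2 change 0.55 ± 0.11, limma adjusted p = 0.112). The other was Adrm1, a ubiquitin receptor of the cap (0.33 ± 0.10), named after its value was seen.

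Over 6 genes of NRF1 and its processing the median was 0.27, and 3 were higher and 0 lower with an unadjusted p below 0.05, a threshold passed by 9.02% and 10.2% of all genes. Ngly1, which strips sugar chains from NRF1 and other proteins, had 0.535 and 0.580 in DEM, against 0.393 and 0.384 in DMSO (log2 change 0.52 ± 0.09, limma adjusted p = 0.0883). Vcp, the ATPase that pulls proteins out of the endoplasmic reticulum for degradation, and its cofactor Nploc4 had 0.32 ± 0.09 and 0.31 ± 0.09, whereas Nfe2l1, which encodes NRF1 itself, had 0.00 ± 0.09. These 3 were named after their values were seen.

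Over 11 ubiquitin and shuttle genes the median was 0.06. Rad23b, a shuttle that brings ubiquitinated proteins to the proteasome, had the largest change, with 1.99 and 2.31 in DEM, against 1.78 and 1.76 in DMSO (log2 change 0.28 ± 0.11, limma adjusted p = 0.279). Its DEM values both lay above its DMSO values.

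**Figure D4:**
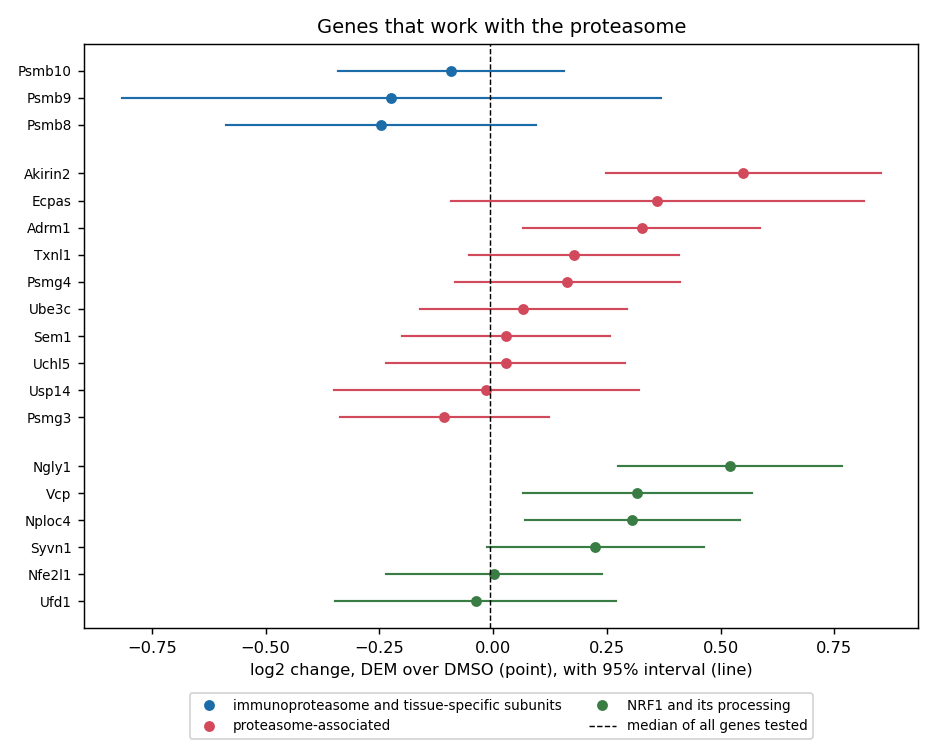
Log2 change, DEM over DMSO (x axis), of the tested genes of 3 related lists (immunoproteasome and tissue-specific subunits, proteasome-associated genes, NRF1 and its processing), with 95% intervals from limma and the median of all genes as a dashed line. Akirin2 at 0.55 and Ngly1 at 0.52 lead their lists, the 3 immunoproteasome subunits lie below 0 (Psmb10 above it with median scaling), and none of these genes passed the adjusted threshold.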

How the data were processed

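Gene expression was measured on 4 Agilent one-colour arrays, 2 DEM and 2 DMSO, with groups and replicate numbers taken from the sample titles. The labelling used 500 ng of RNA, per the labels' protocols. The extract protocol speaks of liver, the remaining labels of the cell line. Per the file headers the arrays were annotated on mm9, read with Agilent Feature Extraction 10.7.3.1 (protocol GE1_107_Sep09), and lay on 1 slide with 1 scan time, so that neither could be tested as a batch. The deposited processed signal of each spot is an intensity on a linear scale, after Feature Extraction's background subtraction. The authors' value table held the same intensity for all 45018 spots of every array.

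Here log2 of the processed signal was taken relative to the 75th percentile of the array over 43379 non-control spots, whose signal was 548 and 528 in DEM and 532 and 513 in DMSO. Spots with an outlier flag were dropped, spots of a probe averaged, and 22 probes without an unflagged spot on some array left out. Probes were named by accession through a RefSeq table of GRCm38.p6, used for names only (26690 of 41174 probes). A probe was tested if well above background on at least 2 of 4 arrays, and a gene was represented by its brightest tested probe. DEM was compared with DMSO over 15537 genes with limma 3.58.1 in R 4.3.3 (lmFit, eBayes, two-sided, Benjamini-Hochberg, threshold 0.05). The fit was tested on simulated data. The number of arrays limits the precision.

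The members and lists were chosen with earlier results of these data known. Values on each array are printed for members at an unadjusted p under 0.05 and for the highest and lowest of each class, and of the related lists the gene with the largest change is named. Single values of some ubiquitin and shuttle genes are not reported here. The alternatives were normexp with an offset of 50 on the median spot signal (no mean spot signal was used here), quantile, median and spike-in normalization, the value table, other probe filters and probe choices, eBayes with trend, blocking on replicate number, and omitting each array in turn.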

Additional observations from a re-analysis of the deposited data

How the results depend on the processing

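Over the 16 alternatives, leaving out each array included, 0 members were called lower. Members called higher numbered 1 (Psmd5) after normexp, with median scaling and with probes above background on all 4 arrays, and 2 (with Psmd7) with the variance trend, with or without robust fitting, and 0 otherwise. Over all genes, 437 were called higher and 370 lower after normexp, 61 and 32 with quantile normalization, 404 and 163 with median scaling, 192 and 423 with spike-in scaling, 230 and 196 with probes above background on all 4 arrays, 415 and 311 with the trend, 492 and 390 with trend and robust fitting, and 0 and 0 with no filter on dim probes (unadjusted p under 0.05 in 1246 higher and 1919 lower). Rises made up 58.4% of the calls, against 71.3% with median and 31.2% with spike-in scaling. Leaving out 1 array gave 0 to 69 higher and 0 to 52 lower, with 0 without either DMSO array. With the replicate number as a block 74 genes were called higher and 69 lower, and 0 members; the numbers are not stated to pair the samples, and deviations of same-numbered arrays correlated at 0.138.

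Relative to all genes, the alpha median was 0.12 after normexp, 0.13 with quantile normalization, 0.13 with no filter, 0.15 with mean probes and 0.12 against bright genes alone, a setting chosen after seeing the data. The median of the other cap proteins was 0.12 after normexp, 0.061 with no filter, 0.12 with every probe, 0.10 with mean probes and 0.058 against bright genes, and that of the assembly factors 0.12 with every probe. Leaving out 1 array gave ranges of 0.071 to 0.14 for all members, 0.14 to 0.20 for alpha, 0.020 to 0.14 for beta, 0.069 to 0.17 for the ATPases, 0.056 to 0.10 for the other cap proteins, −0.017 to 0.075 for the activators and −0.011 to 0.083 for the assembly factors.

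Members near 0 changed sign. Relative to all genes, Psmc1 was 0.12 and Psmd9 0.0039 after normexp; Psmb7 −3.8e-04, Psmd13 −0.030, Psme2 −0.017 and Psmf1 −0.0051 with quantile normalization; Psmb7 −0.0053, Psmd10 −0.0095, Psmd13 −0.020, Psme2 −0.018 and Psmf1 −0.0013 with no filter; Psmd13 −0.0043 and Psme2 −0.0017 with all 4 arrays required; and Psmd9 0.082 and Psmf1 −0.044 with mean probes. Leaving out 1 array, values ran from −0.11 to 0.058 for Pomp, −0.055 to 0.14 for Psmb2, −0.0013 to 0.093 for Psmb4, −0.040 to 0.11 for Psmb5, −0.036 to 0.065 for Psmb7, −0.056 to 0.037 for Psmc1, −0.0024 to 0.17 for Psmc3, −0.024 to 0.042 for Psmd10, −0.083 to 0.080 for Psmd13, −0.0025 to 0.10 for Psmd3, −0.054 to 0.023 for Psmd9, −0.017 to 0.021 for Psme2, −0.051 to 0.085 for Psmf1 and −0.011 to 0.083 for Psmg1. The cause of these changes was not tested.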
